A study of Mus musculus domesticus with 12 samples.

Results

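The 29 genes described here regulate or carry out apoptosis and stand outside the targets of p53. The rule used their names and roles, with earlier results of these data known, and all 29 were found by symbol among the 55385 gene identifiers of the 12 deposited gene tables. There were 4 anti-apoptotic BCL2 proteins (Bcl2, Bcl2l1, Mcl1 and Bcl2a1b), 6 BH3-only proteins (Bcl2l11, Bid, Bad, Bik, Hrk and Bmf), 2 pore-forming proteins (Bak1 and Bok) and 4 caspases (Casp2, Casp6, Casp8 and Casp9). The others were 4 inhibitors (Xiap, Birc2, Birc3 and Cflar), 2 death receptor adaptors (Fadd and Tradd), 5 mitochondrial proteins released in apoptosis (Cycs, Diablo, Htra2, Endog and Aifm1) and the 2 subunits of DNA fragmentation factor (Dffa and Dffb). In all, 27 of the 29 passed the filter on low counts, and Bik and Bcl2a1b did not.

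RNA was sequenced from progenitors of the E14.5 fetal liver of C57BL/6J mice, depleted of lineage-positive cells, infected with a retrovirus and then cultured for 2 days under conditions that favour erythroid expansion. The 3 groups of 4 libraries differed in the short hairpin RNA: against Dis3 (shDis3), against Exosc10 (shExosc10) or against firefly luciferase, the control (shLuc). Every group was sorted alike, for GFP, for CD71 (the transferrin receptor) at an intermediate level or above, and for lack of Ter119, a marker of later erythroblasts. Such cells are enriched for erythroid precursors. Dis3 and Exosc10 are catalytic subunits of the RNA exosome, which trims and degrades RNA, and the series asked how the transcriptome of these cells depends on each. Whether replicates were separate cultures or animals is not stated, so each p-value speaks to the spread among libraries alone, and that spread may be technical. In bulk samples such as these, fewer cells of a type and less RNA per cell cannot be told apart.

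Libraries held 14936200 to 32397204 counts. The targeted transcripts matched the labels. Dis3 lay between 24.7 and 52.4 normalised CPM (counts scaled to library size) in shDis3, against 113 to 160 in shLuc, and Exosc10 between 18.9 and 30.8 in shExosc10, against 85.4 to 113 in shLuc. The libraries did not sort by shRNA alone. Over 8219 expressed genes they formed 3 clusters. Cluster 1 held shDis3 replicates 1 to 3 with shLuc replicate 4, and cluster 2 held shDis3 replicate 4 with shExosc10 replicate 1. Cluster 3 held shExosc10 replicates 2 to 4 with shLuc replicates 1 to 3. In all, 6 of the 12 libraries correlated best with a library of another group. The 12 erythroid markers were counted in every library. Their summed level was 1371 to 1885 CPM in the 6 libraries of clusters 1 and 2 and 2332 to 2751 CPM in the 6 of cluster 3. Such sums weigh abundant genes most, and Tfrc alone ran from 351 to 1413 CPM, while Gata1 ran from 81.9 to 133 CPM. Summed granulocyte markers ran from 2128 to 4904 CPM in shDis3, from 1346 to 2108 CPM in shExosc10 and from 1095 to 4270 CPM in shLuc libraries, with shLuc replicate 4 at 4270. Megakaryocyte markers ran from 326 to 407, from 139 to 350 and from 86.0 to 464 CPM in the same groups. All 11 granulocyte markers had counts in every library and so did the 11 megakaryocyte markers, except Gp6 at 0 in 1 library. Among the granulocyte markers, Mpo alone ran from 583 to 3746.5 CPM over the 12 libraries. Mast cell and basophil markers summed to 127 to 537 CPM over the 12 libraries, with shLuc replicate 4 at 537. Macrophage and monocyte markers summed to 91.4 to 186 CPM, and endothelial and stromal markers to 22.4 to 66.0 CPM. By contrast, lymphoid markers summed to 8.84 CPM at most and hepatocyte markers to 30.2 CPM at most. The results that turn on these libraries are given with all 12 and without shDis3 replicate 4, shExosc10 replicate 1 and shLuc replicate 4, the 3 that correlated least with their own group (0.925, 0.919 and 0.899 at best), and the part of other cell types in them was not tested.

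Apoptosis runs through connected routes. In the mitochondrial route, BH3-only proteins bind and neutralise anti-apoptotic BCL2 proteins or directly activate the pore formers Bax and Bak1. Cytochrome c (Cycs) then leaves the mitochondrion, assembles with Apaf1 and activates caspase 9. In the death receptor route, Fadd and Tradd recruit caspase 8, which cleaves Bid and executioner caspases, and Cflar (cFLIP) restrains it. In the red cell lineage, Bcl2l1 (Bcl-xL) is known as a survival factor that erythropoietin signalling induces, Mcl1 is needed by early progenitors, and death receptor signalling is a known brake on erythroblast numbers.

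The BCL2 family is held together by a short helix, the BH3 segment, through which pore formers and BH3-only proteins dock into the groove of anti-apoptotic members. Its core, a leucine, any 3 residues, a glycine and an aspartate, was searched in the longest complete coding sequence of each gene in GENCODE M21 transcripts (build GRCm38). It was present in 9 of the 12 BCL2 family members, once in each, and in 2884 of 21776 coding sequences of all genes (13.2%), so a match on its own is only a description. The 6 best measured members with a match are shown to let the killers and protectors be compared, as 42 bases of coding strand with the 6 codons of the core in capitals.
Mcl1: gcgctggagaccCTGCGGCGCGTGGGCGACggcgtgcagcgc
Bcl2l1: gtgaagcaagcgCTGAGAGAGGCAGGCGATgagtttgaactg
Bcl2: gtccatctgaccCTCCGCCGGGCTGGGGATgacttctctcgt
Bid: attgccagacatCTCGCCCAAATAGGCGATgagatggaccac
Bcl2l11: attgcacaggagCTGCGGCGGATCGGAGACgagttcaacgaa
Bak1: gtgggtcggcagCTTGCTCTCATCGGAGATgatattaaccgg
These windows lie at chr3:95659424-95659465 on the plus strand (Mcl1) and chr2:152829694-152829735 on the minus strand (Bcl2l1). The others lie at chr1:106712572-106712613 on the minus strand (Bcl2) and chr6:120897286-120897327 on the minus strand (Bid), and at chr2:128147138-128147179 on the plus strand (Bcl2l11) and chr17:27022528-27022569 on the minus strand (Bak1), each within 1 coding exon. Over the 18 core bases, the protector Mcl1 and the BH3-only killer Bcl2l11 shared 14, Bid and Bak1 shared 12, and Bcl2l1 and Bak1 shared 7.

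TPM, which corrects for transcript length and so allows levels of different genes to be compared, placed cytochrome c first. The median TPM over the 12 libraries was 105 for Cycs (77.1 to 149) and 57.5 for the protector Mcl1 (30.5 to 104). They were followed by 45.3 for Aifm1, 39.1 for the protease Htra2, 35.9 for the pore former Bak1 (11.9 to 78.2) and 28.6 for Diablo, which frees caspases from Xiap. Bcl2l1 had a median of 12.8 TPM (5.06 to 27.4) and Bcl2 one of 1.08 TPM (0.56 to 2.43), which left Mcl1 as the most abundant anti-apoptotic transcript by its median. Of the 29 members, 13 had a median of at least 10 TPM, 11 lay between 1 and 10 TPM, and 5 (Bmf, Bik, Bok, Hrk and Bcl2a1b) were under 1 TPM. Cycs was above Mcl1 in 12 of 12 libraries and Diablo above Bid in 12 of 12. In contrast, Htra2 exceeded Bak1 in 7 of 12 and Bad exceeded Bcl2l1 in 6 of 12. The order of such neighbours did not hold across libraries. TPM values also share their total with small structured RNA, which took 18.2% to 32.6% of the TPM in shDis3, 21.8% to 31.8% in shExosc10 and 17.7% to 46.3% in shLuc libraries. Tests were therefore run on counts.

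**Figure D1:**
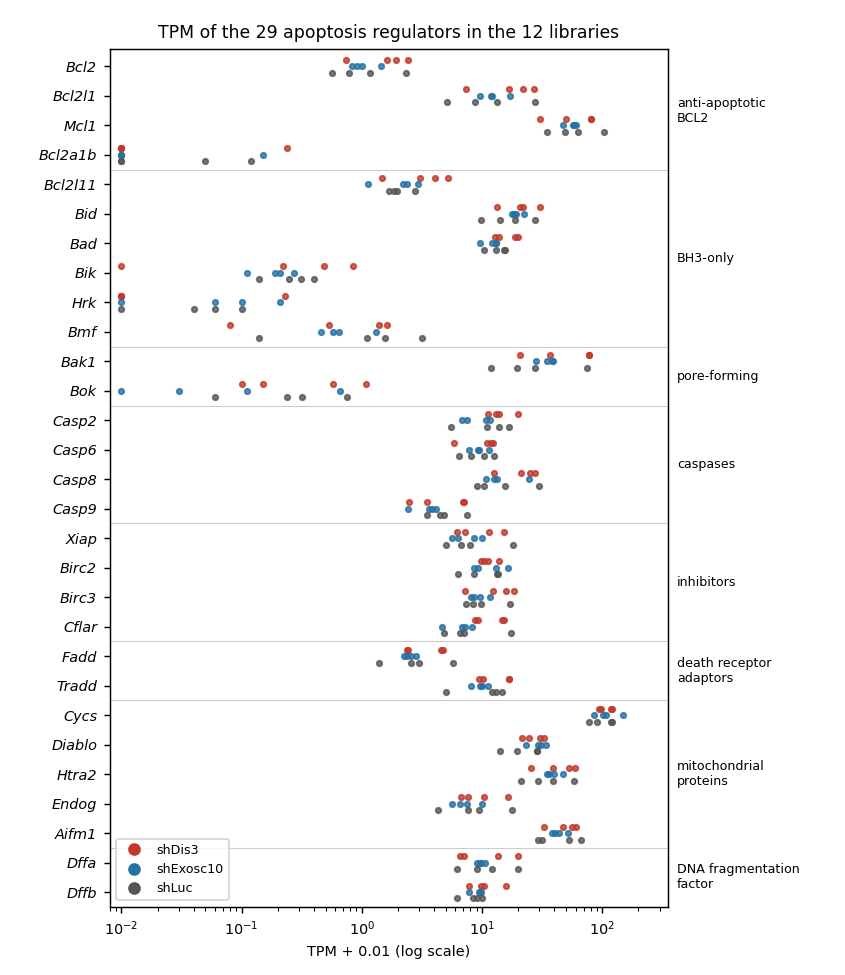
TPM plus 0.01 of the 29 members (log axis, rows grouped by role) in each of the 12 libraries, 4 per group, with shDis3 in red above shExosc10 in blue and shLuc in grey. Cycs and Mcl1 lead with medians of 105 and 57.5 TPM and 5 members stay under a median of 1 TPM.

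With all 12 libraries, 0 of 27 members passed the adjusted threshold of 0.05 in any of the 3 comparisons. This held for edgeR's quasi-likelihood test with Benjamini-Hochberg adjustment over 17650 genes, and also for DESeq2 and limma. By edgeR, 0.0% of all genes tested were called in shDis3 against shLuc, 0.00567% in shExosc10 against shLuc and 0.0113% between shDis3 and shExosc10. At an unadjusted edgeR p under 0.05, there were 0 of 27 members (4.07% of all genes) in shDis3 against shLuc and 0 of 27 (2.1%) in shExosc10 against shLuc. Between shDis3 and shExosc10 there was 1 of 27 (5.98%), Cflar. At the same unadjusted threshold DESeq2 gave 0 of 27 members (5.42% of all genes), 2 of 27 (3.1%) and 2 of 27 (8.3%) in these comparisons, and the 2 were Cflar and Diablo both times.

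The median log2 fold change of the members was 0.02 in shDis3 against shLuc (17 positive, 10 negative), where that of all genes was 0.02. In shExosc10 against shLuc it was -0.10 (10 positive, 17 negative), where that of all genes was 0.02. Between shDis3 and shExosc10 it was 0.18 (17 positive, 10 negative), where that of all genes was 0.01. Each pair of comparisons shares the libraries of a group. The 95% interval of the fold change lay inside a 2-fold change in either direction for 22 members in shDis3 against shLuc, 24 in shExosc10 against shLuc and 21 between shDis3 and shExosc10. Smaller differences are left undecided by these tests, and the intervals of Hrk, Bmf and Bok, the rarest members tested, reached past a 2-fold change in all 3 comparisons.

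**Figure D2:**
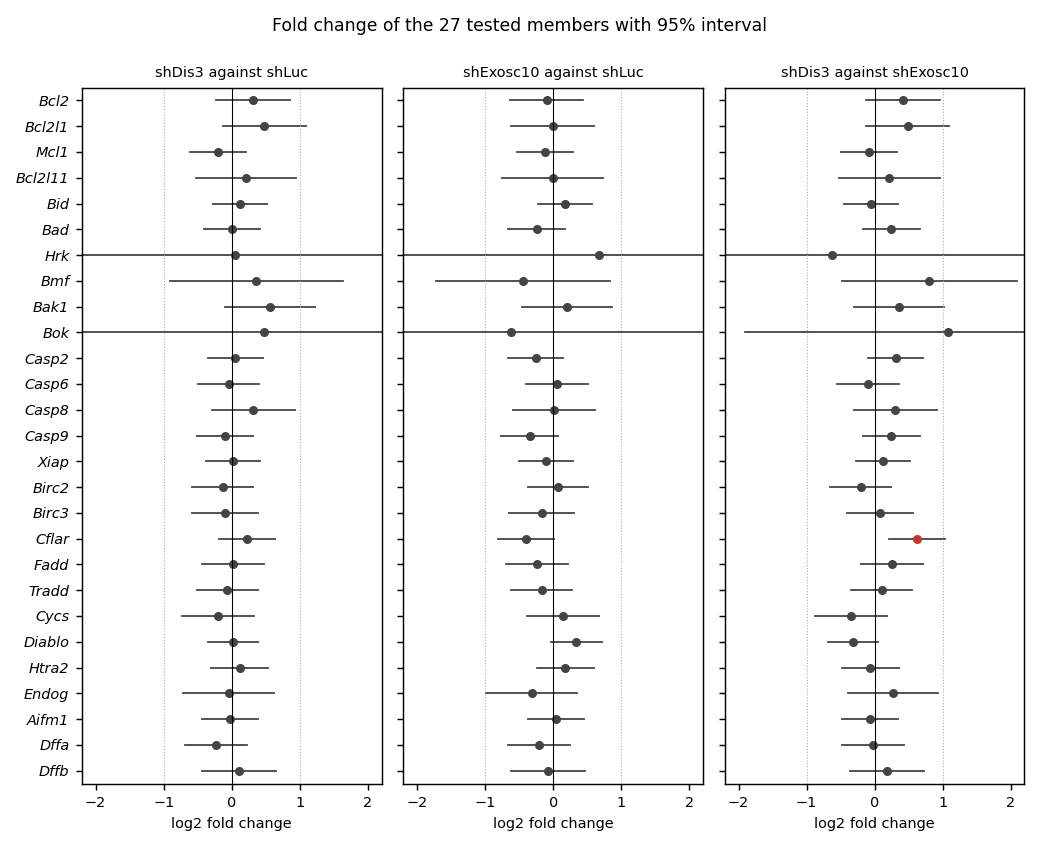
Log2 fold change with its 95% interval for the 27 tested members in shDis3 against shLuc, shExosc10 against shLuc and shDis3 against shExosc10 (edgeR, 4 libraries per group). Dotted lines mark a 2-fold change, the red point is Cflar, the member at an unadjusted p under 0.05, and the intervals of Hrk and Bok run past the axis.

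Among the anti-apoptotic BCL2 genes, Mcl1, Bcl2l1 and Bcl2 were tested and Bcl2a1b had too few counts. Mcl1 (chr3:95658788-95663176) is short-lived and sequesters Bak1 and Bcl2l11. It had 165, 111, 134 and 87.7 normalised CPM in shDis3 replicates 1 to 4, 117, 149, 139 and 124 in shExosc10, and 142, 134, 135 and 163 in shLuc. The shDis3 libraries covered a wider range than both other groups and enclosed them. Its log2 fold change was -0.21 (SE 0.19) for shDis3 against shLuc and -0.12 (SE 0.19) for shExosc10 against shLuc, and neither passed.

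Bcl2l1 (chr2:152780668-152831728), which encodes the protector Bcl-xL, had 39.7, 34.5, 26.1 and 15.4 normalised CPM in shDis3 replicates 1 to 4, 13.5, 21.2, 22.8 and 25.3 in shExosc10, and 16.3, 18.4, 20.4 and 28.1 in shLuc. Replicates 1 to 3 of shDis3 were high along with replicate 4 of shLuc, and the lowest values belonged to shDis3 replicate 4 and shExosc10 replicate 1. Its log2 fold change was 0.48 (SE 0.29, 95% interval -0.13 to 1.09) for shDis3 against shLuc and -0.0082 (SE 0.29) for shExosc10 against shLuc. Between shDis3 and shExosc10 it was 0.48 (SE 0.29, adjusted p = 0.852, edgeR). Without shDis3 replicate 1, the difference between shDis3 and shLuc was 0.27 (SE 0.29). It was 0.68 (SE 0.25) without shDis3 replicate 4 and 0.65 (SE 0.29) without shLuc replicate 4, and none of these passed. Bcl2 (chr1:106538178-106714274), the founding member of the family, was also high in shDis3 replicates 1 to 3 and shLuc replicate 4. It had 11.2, 11.0, 12.2 and 6.81 normalised CPM in shDis3, 7.24, 8.21, 6.04 and 9.44 in shExosc10, and 6.76, 7.15, 7.53 and 11.6 in shLuc. The lowest values were those of shExosc10 replicate 3 and shLuc replicate 1, and the log2 fold change for shDis3 against shLuc was 0.31 (SE 0.25).

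The pore former Bak1 (chr17:27019810-27029009) gave the smallest p of all members in shDis3 against shLuc. It had 106, 61.4, 85.5 and 41.8 normalised CPM in shDis3 replicates 1 to 4, 44.6, 68.9, 57.3 and 58.6 in shExosc10, and 33.7, 41.2, 41.2 and 83.6 in shLuc. All 4 shDis3 libraries and all 4 shExosc10 libraries exceeded shLuc replicates 1 to 3, while shLuc replicate 4 exceeded every shExosc10 library. The log2 fold change was 0.56 (SE 0.31, 95% interval -0.10 to 1.22) for shDis3 against shLuc, 0.20 (SE 0.31) for shExosc10 against shLuc and 0.36 (SE 0.31) for shDis3 against shExosc10. Without shLuc replicate 4 alone, the first of these was 0.92 (SE 0.27, adjusted p = 0.132, edgeR), and without shDis3 replicate 1 alone it was 0.33 (SE 0.32). Bok, a pore former that acts outside the control of BCL2 proteins, had between 0 and 13 counts in a library, too few to rank the groups.

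A ratio of 2 genes within a library does not depend on how libraries are scaled, and was looked at after these values were seen. The TPM of Bak1 over that of its restrainer Mcl1 was 0.948, 0.746, 0.968 and 0.679 in shDis3 replicates 1 to 4, 0.607, 0.668, 0.570 and 0.679 in shExosc10, and 0.340, 0.439, 0.402 and 0.722 in shLuc. The ratio was thus lowest in shLuc replicates 1 to 3 and at the level of the other groups in shLuc replicate 4. The TPM of Bak1 over that of Bcl2l1 ran from 2.198 to 3.58 in shDis3, from 2.25 to 3.22 in shExosc10 and from 2.05 to 2.73 in shLuc, with the groups overlapping.

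Of the 6 BH3-only genes, Bid had the highest TPM. Bid (chr6:120891930-120916853) links the death receptor route to mitochondria once caspase 8 has cut it, and had 41.1, 31.6, 46.8 and 54.5 normalised CPM in shDis3 replicates 1 to 4, 54.2, 44.0, 43.6 and 39.0 in shExosc10, and 36.3, 38.3, 41.6 and 43.8 in shLuc. The groups overlapped, and the fold change was 0.12 on the log2 scale (SE 0.18) for shDis3 against shLuc and 0.18 (SE 0.18) for shExosc10 against shLuc. Bcl2l11 (Bim), a broad binder of anti-apoptotic proteins, ranged from 4.41 to 13.5 normalised CPM in shDis3, from 3.79 to 9.67 in shExosc10 and from 5.60 to 9.82 in shLuc. Bad, which growth factor signalling inactivates by phosphorylation, ran from 13.4 to 16.2, from 9.93 to 14.2 and from 11.4 to 17.5 in the same groups. Bmf, released from the cytoskeleton under stress, had 7 to 71 counts in a library.

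Hrk, a BH3-only gene best known from neurons, had 0, 24, 0 and 0 counts in shDis3 replicates 1 to 4, 0, 15, 10 and 25 in shExosc10, and 6, 9, 16 and 0 in shLuc. The 5 libraries at 0, where a count of 0 allows up to 3 counts or 0.0867 to 0.179 CPM, were those in which counts on olfactory receptor genes, which these cells are not known to use, summed to 7.32 to 33.2 CPM. The 7 libraries with Hrk counts had olfactory sums of 38.9 to 665 CPM, so its counts moved with a signal unrelated to apoptosis, whose part in them was not tested. Bik had 0 to 19 counts in a library and Bcl2a1b, which has near-identical copies that share its reads, was at 0 in 8 of 12 libraries and reached 4 counts at most.

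None of the 4 caspases passed the test. Casp8 (chr1:58795374-58847503), the caspase that death receptors activate, had 36.1, 28.9, 39.9 and 61.2 normalised CPM in shDis3 replicates 1 to 4, 56.0, 26.8, 26.5 and 25.2 in shExosc10, and 30.3, 31.9, 29.8 and 41.4 in shLuc. Replicate 4 of shDis3 and replicate 1 of shExosc10 were the high libraries, and replicates 2 to 4 of shExosc10 were the lowest of all. Casp8 gave a log2 fold change of 0.32 (SE 0.28) for shDis3 against shLuc and 0.01 (SE 0.28) for shExosc10 against shLuc. Casp9 (chr4:141793612-141815976), which the apoptosome activates, had 16.4, 10.8, 12.95 and 12.99 normalised CPM in shDis3, 8.98, 12.4, 11.1 and 12.5 in shExosc10, and 15.1, 12.8, 16.6 and 12.6 in shLuc. Every shExosc10 library lay below every shLuc library, by a narrow margin. The log2 fold change was -0.35 (SE 0.19, 95% interval -0.76 to 0.07). It was the 1 member of 27 whose shExosc10 and shLuc libraries did not overlap, against 2.48% of all genes. On the TPM scale these groups did overlap. Casp2, an initiator linked to failed division, ran from 34.5 to 47.1 normalised CPM in shDis3, from 24.3 to 42.1 in shExosc10 and from 34.2 to 43.8 in shLuc. The executioner Casp6 ran from 10.2 to 21.1, from 14.6 to 17.4 and from 13.3 to 17.3 in these groups.

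Cflar (chr1:58711508-58758884), which lies close to Casp8 on chromosome 1 and encodes the decoy that holds caspase 8 in check, gave the smallest p of the members in the other 2 comparisons. It had 30.15, 30, 32.99 and 29.5 normalised CPM in shDis3 replicates 1 to 4, 22.8, 18.9, 19.0 and 19.1 in shExosc10, and 21.6, 21.6, 24.4 and 37.4 in shLuc. All 4 shDis3 libraries lay above all 4 shExosc10 libraries and above shLuc replicates 1 to 3, and shLuc replicate 4 was the highest of the 12. The log2 fold change was 0.62 (SE 0.19, adjusted p = 0.672, edgeR, 95% interval 0.21 to 1.03) for shDis3 against shExosc10. It was 0.22 (SE 0.19) for shDis3 against shLuc and -0.40 (SE 0.19, 95% interval -0.81 to 0.01) for shExosc10 against shLuc. It was the 1 member of 27 whose shDis3 and shExosc10 libraries did not overlap, against 3.71% of all genes. For shDis3 against shLuc there were 0 of 27, against 1.7% of all genes.

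Of the inhibitor of apoptosis proteins, Birc3 (cIAP2, chr9:7848699-7873186), a ubiquitin ligase of TNF receptor complexes, had 23.95, 17.9, 23.3 and 30.2 normalised CPM in shDis3 replicates 1 to 4, 28.95, 20.9, 21.6 and 19.1 in shExosc10, and 31.9, 17.0, 25.6 and 27.6 in shLuc. The groups overlapped throughout, with a log2 fold change of -0.10 (SE 0.23) for shDis3 against shLuc and -0.17 (SE 0.23) for shExosc10 against shLuc. Its neighbour and paralogue Birc2 (cIAP1, chr9:7818227-7837064) ran from 23.8 to 34.7 normalised CPM in shDis3, from 29.6 to 39.4 in shExosc10 and from 25.4 to 46.1 in shLuc. Xiap, the direct caspase inhibitor, ran from 38.3 to 53.7, from 37.5 to 54.3 and from 37.9 to 54.3 normalised CPM in the same groups, a nearly identical span.

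Of the adaptors, Tradd (chr8:105258286-105264609), which joins TNF receptor 1 to its kinases, had 16.5, 10.3, 14.1 and 15.03 normalised CPM in shDis3 replicates 1 to 4, 13.4, 12.5, 13.7 and 12.5 in shExosc10, and 11.4, 14.99, 19.8 and 12.6 in shLuc. The shExosc10 libraries sat within the spread of the other 2 groups, and the log2 fold change was -0.07 (SE 0.21) for shDis3 against shLuc and -0.17 (SE 0.21) for shExosc10 against shLuc. Fadd, the bridge between Fas and caspase 8, ran from 10.8 to 17.5 normalised CPM in shDis3, from 10.8 to 12.7 in shExosc10 and from 10.2 to 17.97 in shLuc.

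Cytochrome c (Cycs, chr6:50562563-50566538) had 161, 219, 156 and 307 normalised CPM in shDis3 replicates 1 to 4, 346, 251, 259 and 217 in shExosc10, and 315, 264, 213 and 177 in shLuc. Its 3 lowest libraries were shDis3 replicates 1 and 3 and shLuc replicate 4, and its 3 highest came 1 from each group. The log2 fold change was -0.20 (SE 0.25) for shDis3 against shLuc and 0.15 (SE 0.25) for shExosc10 against shLuc. Between shDis3 and shExosc10 it was -0.35 (SE 0.25, adjusted p = 0.914, edgeR). Diablo (Smac, chr5:123509765-123524176), the antagonist of Xiap, had 40.9, 33.8, 30.8 and 44.0 normalised CPM in shDis3, 48.7, 40.7, 50.6 and 46.5 in shExosc10, and 34.5, 41.6, 41.5 and 30.1 in shLuc. Here shExosc10 libraries tended to be high, with 3 of 4 above every library of both other groups. The log2 fold change was 0.34 (SE 0.17, 95% interval -0.04 to 0.71) for shExosc10 against shLuc and -0.32 (SE 0.17, adjusted p = 0.832, edgeR) for shDis3 against shExosc10.

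The other mitochondrial members are the protease Htra2, the nuclease Endog and the flavoprotein Aifm1. Htra2 ran from 40.6 to 77.4 normalised CPM in shDis3, from 55.6 to 76.0 in shExosc10 and from 47.9 to 58.2 in shLuc. Aifm1 ran from 73.2 to 134, from 91.5 to 129 and from 93.8 to 108 in these groups, and Endog from 6.39 to 12.9, from 5.63 to 11.0 and from 7.02 to 12.6. For Htra2 and Aifm1 the highest values were again those of shDis3 replicate 4 and shExosc10 replicate 1. Dffa (ICAD, chr4:149104146-149120647), the chaperone and inhibitor that caspases cut to free the nuclease, had 28.4, 16.7, 33.3 and 19.3 normalised CPM in shDis3 replicates 1 to 4, 23.8, 26.5, 24.1 and 25.1 in shExosc10, and 24.6, 27.6, 28.6 and 33.8 in shLuc. The shDis3 libraries spread across the range of both other groups, and the log2 fold change was -0.23 (SE 0.21) for shDis3 against shLuc and -0.20 (SE 0.21) for shExosc10 against shLuc. The nuclease itself, Dffb (CAD), ran from 15.2 to 26.95 normalised CPM in shDis3, from 16.9 to 20.8 in shExosc10 and from 13.7 to 30.8 in shLuc.

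**Figure D3:**
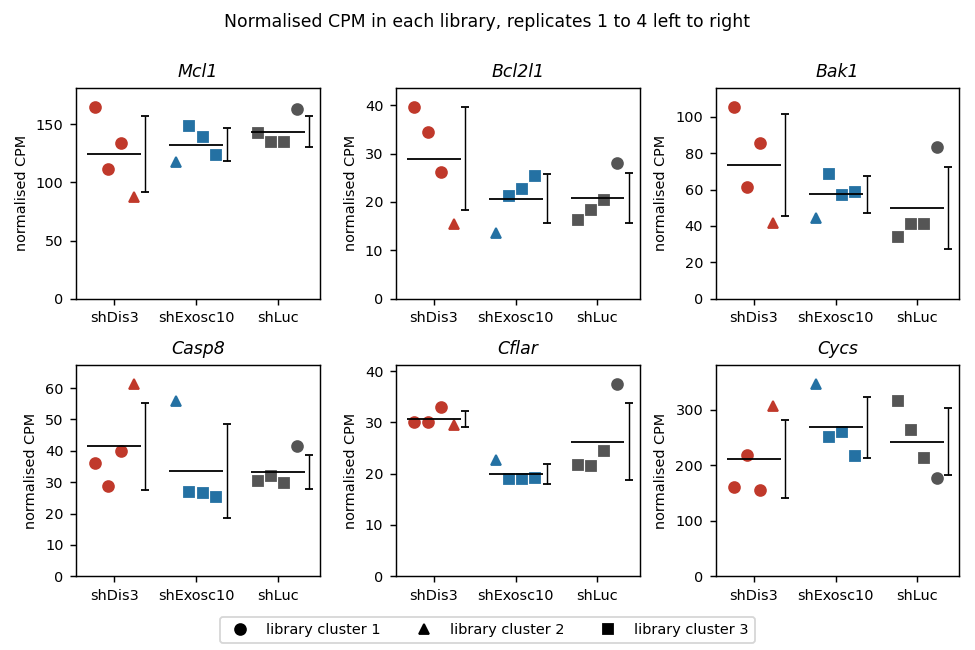
Normalised CPM of 6 members in the 12 libraries, replicates 1 to 4 from left to right within shDis3, shExosc10 and shLuc, with the group mean (line) and SD (bar, n = 4) and a symbol for the library cluster. For Bcl2l1, Bak1 and Cflar, shLuc replicate 4 lies with the shDis3 circles, and for Casp8 and Cycs shDis3 replicate 4 lies with shExosc10 replicate 1 (triangles).

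Read by cluster rather than by shRNA, some members stood apart in 2 blocks of libraries. Bcl2, Bcl2l1, Cflar and Bmf were higher in all 4 libraries of cluster 1 than in all 6 of cluster 3 (4 of 27 members, against 5.59% of all genes), and Casp6 was lower (1 of 27, against 4.45%). Bid, Casp8, Htra2 and Aifm1 were higher in both libraries of cluster 2 than in all 10 others (4 of 27, against 12.1% of all genes), and Bcl2l1 and Bcl2l11 were lower (2 of 27, against 10.1%). Except for Bcl2, Bmf and Bcl2l11, whose mean was under 10 CPM, the members named here are among the genes that formed the clusters. The clusters come from the same libraries, so these counts describe the clusters and test nothing. Bak1 had 61.4 to 106 normalised CPM in cluster 1, 41.8 to 44.6 in cluster 2 and 33.7 to 68.9 in cluster 3, so its ranges in clusters 1 and 3 overlap. In cluster 2, Casp8 had 56.0 to 61.2 normalised CPM, against 28.9 to 41.4 in cluster 1 and 25.2 to 31.9 in cluster 3.

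**Figure D4:**
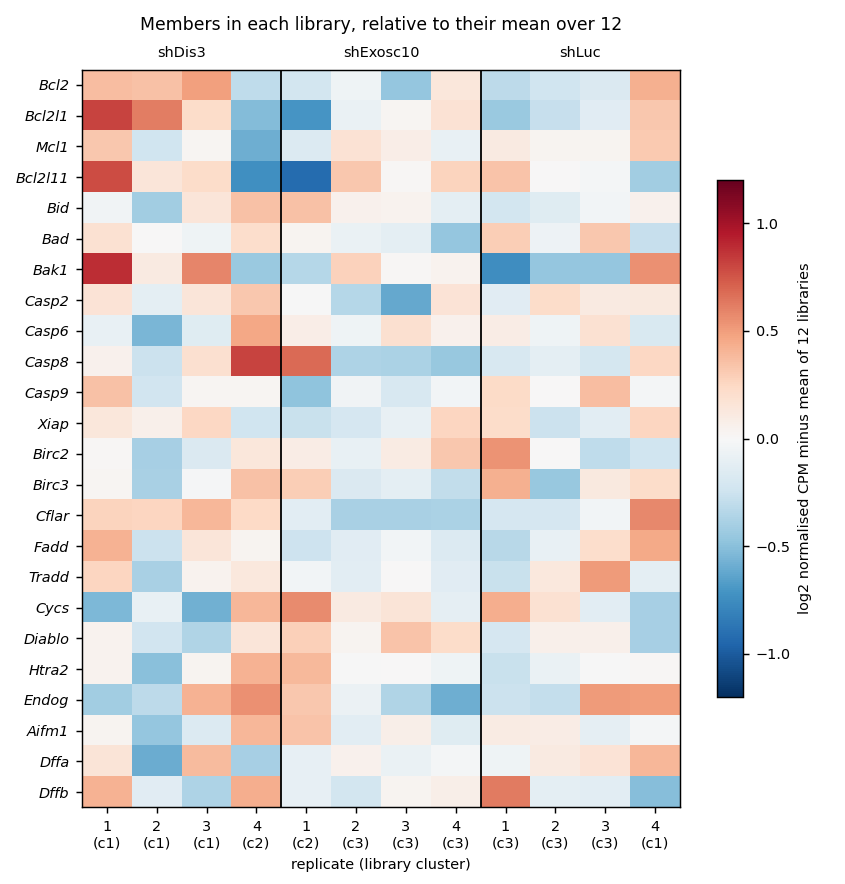
Log2 normalised CPM of 24 members minus their mean over the 12 libraries, by library, for shDis3, shExosc10 and shLuc from left to right with the cluster number (c1 to c3) below each replicate; Hrk, Bok and Bmf are left out for their low counts. Replicate 4 of shDis3 and replicate 1 of shExosc10 share raised Casp8 and lowered Bcl2l1 and Bcl2l11, and replicate 4 of shLuc shares raised Bcl2, Bcl2l1, Bak1 and Cflar with shDis3 replicates 1 to 3.

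The 2 pairs of libraries from different groups with the highest correlations across expressed genes were picked for that closeness, and their members are given as a description. The log2 ratio of shDis3 replicate 3 over shLuc replicate 4 had a median of 0.02 over the 27 members and ran from -0.31 to 0.64. In this pair Bak1 differed by 0.03, Bcl2l1 by -0.10 and Cflar by -0.18. For shDis3 replicate 4 over shExosc10 replicate 1 the median was 0.06, the range was -1.04 to 0.53, and Cflar differed by 0.37, Casp8 by 0.13 and Bak1 by -0.10. Cluster 3 holds 3 libraries each of shExosc10 and shLuc. In it 6 of 27 members did not overlap between the groups, against 11.4% of all genes. Bak1 had 57.3 to 68.9 normalised CPM in shExosc10 and 33.7 to 41.2 in shLuc, and Bcl2l1 had 21.2 to 25.3 in shExosc10 and 16.3 to 20.4 in shLuc. These 2 were higher in shExosc10, and the other 4 were lower. Cflar had 18.9 to 19.1 in shExosc10 and 21.6 to 24.4 in shLuc, and Casp8 had 25.2 to 26.8 in shExosc10 and 29.8 to 31.9 in shLuc. Casp9 had 11.1 to 12.5 in shExosc10 and 12.8 to 16.6 in shLuc, and Bad had 9.93 to 13.15 in shExosc10 and 13.25 to 17.5 in shLuc. With the expressed-gene clusters as a factor in the edgeR fit, an alternative chosen after seeing the data, the log2 fold change of Bak1 for shExosc10 against shLuc was 0.57 (SE 0.18, adjusted p = 0.754) and that of Cflar -0.31 (SE 0.14, adjusted p = 1). With clusters drawn from all genes they were 0.27 (SE 0.32, adjusted p = 0.998) and -0.33 (SE 0.19, adjusted p = 0.998), and none of these passed.

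Without shDis3 replicate 4, shExosc10 replicate 1 and shLuc replicate 4, 3 calls appeared. Bak1 rose in shDis3 against shLuc, by 1.12 on the log2 scale (SE 0.21, adjusted p = 0.00696, edgeR), and so did Bcl2l1, by 0.86 (SE 0.20, adjusted p = 0.0217). Cflar rose in shDis3 against shExosc10 by 0.69 (SE 0.16, adjusted p = 0.0315, edgeR). These are 2 of 26 members tested in the first comparison, where 4.04% of all genes were called in either direction and 2.85% as higher, and 1 of 26 in the second, where 3.23% were called and 2.02% as higher. For shExosc10 against shLuc 0 of 26 were called (0.0157% of all genes), and 1 of 26, Bak1 at 0.68 (SE 0.21), had an unadjusted p under 0.05 (3.32% of all genes). In this subset the 3 shDis3 libraries are cluster 1, and the 3 shLuc and 3 shExosc10 libraries are cluster 3. Hence shRNA and cluster cannot be told apart. The 3 libraries left out were also picked by their expression in these data, and the p-values of this fit do not allow for that choice. Over all 12 libraries, the only shLuc library in a cluster with shDis3 is replicate 4, and the only shExosc10 library is replicate 1. Fits with the expressed-gene clusters as a factor, here and below, therefore compare shDis3 with the other groups mainly through these few libraries. With the expressed-gene clusters as a factor over all 12 libraries, the values were 0.19 (SE 0.22) for Bak1, 0.34 (SE 0.21) for Bcl2l1 and 0.17 (SE 0.19) for Cflar, with adjusted p-values of 0.832, 0.678 and 0.891. With the clusters drawn from all genes they were 0.52 (SE 0.31) for Bak1, 0.52 (SE 0.28) for Bcl2l1 and 0.51 (SE 0.20) for Cflar, with adjusted p-values of 0.900, 0.896 and 0.756 by edgeR.

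**Figure D5:**
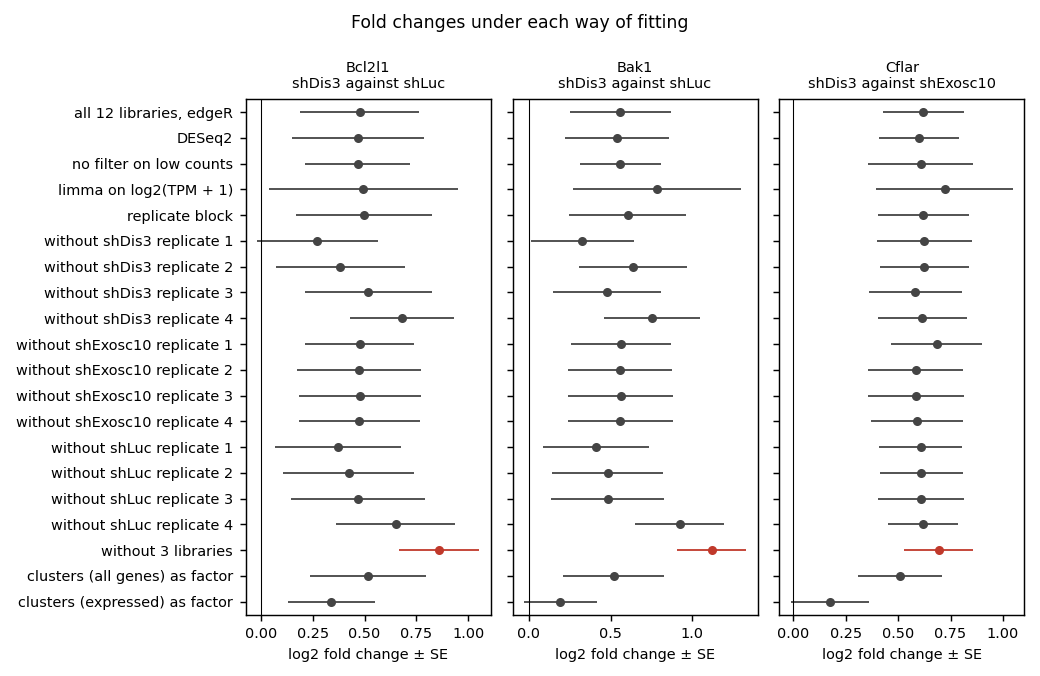
Log2 fold change ± SE of Bcl2l1 and Bak1 in shDis3 against shLuc and of Cflar in shDis3 against shExosc10 under each way of fitting, red where the adjusted p is under 0.05. The fold changes stay positive throughout and pass the threshold only in the fit without the 3 libraries. They are 0.34, 0.19 and 0.17 for Bcl2l1, Bak1 and Cflar with the expressed-gene clusters as a factor. In that fit, the only shLuc library in a cluster with shDis3 is replicate 4, and the only shExosc10 library is replicate 1.

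At an unadjusted p under 0.05 in the same subset, Bcl2 (0.68, SE 0.22) and Cflar (0.46, SE 0.16) were also higher and Cycs lower (-0.57, SE 0.19) in shDis3 than in shLuc, which with Bak1 and Bcl2l1 makes 5 of 26 members, against 15.3% of all genes. Their adjusted p-values of 0.111, 0.155 and 0.131 by edgeR miss the threshold. For shDis3 against shExosc10, 6 of 26 members had such a p, against 14.4% of all genes, namely Cflar, Bcl2l1, Bcl2 and Casp8 with higher and Cycs and Diablo with lower values in shDis3. Mcl1 differed by -0.0046 on the log2 scale (SE 0.18) between shDis3 and shLuc in the subset.

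The rest of the pathway was read from 5 further lists. Of 12 death genes that p53 induces (among them the pore former Bax and the BH3-only genes Bbc3 and Pmaip1), 0 passed the adjusted threshold in shDis3 against shLuc. All 12 had positive fold changes there, with a median of 0.52 on the log2 scale. At an unadjusted p under 0.05 were 5 of the 12 (4.07% of all genes), Pmaip1 (0.81, SE 0.24), Fas (2.10, SE 0.74), Aen (0.40, SE 0.16), Zmat3 (0.79, SE 0.33) and Ei24 (0.50, SE 0.19). The same list had a median of 0.0045 for shExosc10 against shLuc, with 6 of 12 positive, and of 0.51 for shDis3 against shExosc10, with 12 of 12 positive. Without the 3 libraries, 2 of the 12 (4.04% of all genes), Perp (1.14, SE 0.26, adjusted p = 0.0217, edgeR) and Zmat3 (0.90, SE 0.21, adjusted p = 0.0277), rose in shDis3 against shLuc. Perp also rose there against shExosc10 (1.26, SE 0.26, adjusted p = 0.0152, edgeR), 1 of 12 (3.23% of all genes). With the expressed-gene clusters as a factor over all 12 libraries, 11 of 12 were positive for shDis3 against shLuc with a median of 0.71. Zmat3 was then at 1.21 (SE 0.27, adjusted p = 0.308, edgeR) and Perp at -0.09 (SE 0.27).

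Among 13 death receptors, ligands and proximal signalling genes, 11 were tested and 0 called. In shDis3 against shLuc 10 of the 11 had positive fold changes (median 0.39), with Mlkl, the effector of necroptosis, at 0.80 (SE 0.29) and Tnfaip3, an NF-kB feedback enzyme, at -0.90 (SE 0.31), the 2 of 11 at an unadjusted p under 0.05 (4.07% of all genes). Without the 3 libraries, the TNF receptors Tnfrsf1a (1.44, SE 0.25, adjusted p = 0.0042, edgeR) and Tnfrsf1b (1.07, SE 0.23, adjusted p = 0.0153) and the death receptor Tnfrsf21 (0.92, SE 0.20, adjusted p = 0.0183) rose in shDis3 against shLuc, 3 of 11 (4.04% of all genes). Tnfrsf1a also rose against shExosc10 (1.45, SE 0.25, adjusted p = 0.0058, edgeR), 1 of 11 (3.23%). With the expressed-gene clusters as a factor over all 12 libraries, 5 of 11 were positive with a median of -0.11, and Tnfrsf1a was at -0.40 (SE 0.25), Tnfrsf1b at -0.22 (SE 0.25) and Tnfrsf21 at 0.08 (SE 0.22). With the clusters of all genes, 9 of 11 were positive with a median of 0.32. These receptors are also used by myeloid cells. The granulocyte markers summed to 3280 to 4904 CPM in shDis3 replicates 1 to 3 and to 1095 to 1683 CPM in shLuc replicates 1 to 3, a difference whose part in these calls was not tested.

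The list of 10 executioner caspases, substrates and other inhibitors had 0 called and a median log2 fold change of -0.07 for shDis3 against shLuc. Of 13 further BCL2 family genes and partners, 10 were tested and 0 called with all libraries. The 3 of 10 with an unadjusted p under 0.05 in shDis3 against shLuc (4.07% of all genes) were Bnip3 (-2.38, SE 0.59), Bnip3l (-0.45, SE 0.21) and Bcl2l15 (-1.47, SE 0.68). Bnip3, a mitophagy receptor that hypoxia induces, was the only gene of that list called without the 3 libraries, at -2.92 (SE 0.21, adjusted p = 2.0e-05, edgeR) for shDis3 against shLuc and -2.75 (SE 0.21, adjusted p = 4.1e-05) for shDis3 against shExosc10, where shRNA and cluster cannot be told apart. With the expressed-gene clusters as a factor over all 12 libraries Bnip3 was at 0.11 (SE 0.21) for shDis3 against shLuc and at 0.31 (SE 0.22) for shDis3 against shExosc10. With the clusters of all genes it was at -1.97 (SE 0.54) and -1.47 (SE 0.64), and none of these passed. In the list of 12 survival signalling genes upstream, Kit, the stem cell factor receptor, was at -0.63 (SE 0.21) for shDis3 against shLuc. It was the 1 of 12 at an unadjusted p under 0.05 there (4.07% of all genes) and did not pass. The lowest fold change of the list in that comparison was -0.34 with the expressed-gene clusters and -0.59 with the clusters of all genes. In this list 11 of the 12 had negative fold changes for shExosc10 against shLuc, with a median of -0.18 and 0 called. Without the 3 libraries 7 of 12 were negative (median -0.093), with the expressed-gene clusters 7 of 12 (median -0.11) and with the clusters of all genes 11 of 12 (median -0.21).

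The deposited tables also give a mean transcript length per gene and library, which moves when the mix of annotated isoforms that RSEM assigns changes. Of the members with a median of at least 1 TPM, Cflar varied most, from 1922 to 3577 bases over its 13 annotated transcripts, followed by Casp9 (2195 to 3753 bases), Xiap (3436 to 5758 bases) and Bcl2l11 (2248 to 3757 bases). Bcl2l1 ran from 1291 to 1874 bases over 9 transcripts. Mcl1 (1951 to 2252 bases) and Bak1 (1413 to 1645 bases) varied less. The isoforms of Bcl2l1 and Cflar are known to differ in activity, but these values are sums over isoforms and do not show which was made.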

How the data were processed

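RNA of 12 libraries, 4 each of shDis3, shExosc10 and shLuc, was analysed from 1 gene table per library. Per the file headers the authors deposited RSEM's expected counts and TPM with gene lengths, and per the submitters' processing notes reads were aligned with STAR 2.5.3a and quantified with RSEM 1.3.0 on mm10/GRCm38. Neither the annotation release nor the strand setting is given in the sources used here. An expected count shares reads between genes and isoforms, so 3.78% to 5.86% of the values in a library were not whole, and antisense partners and near-identical copies cannot be told apart.

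Expected counts were rounded. edgeR 4.0.16 (R 4.3.3) fitted all 12 libraries together with the group as the only term, TMM scaling and filterByExpr, and its quasi-likelihood test was adjusted by Benjamini-Hochberg over 17650 genes, with a threshold of 0.05. The biological coefficient of variation was 60%. Fold changes and their 95% intervals come from this fit, and normalised CPM uses TMM library sizes of 16735646 to 34582769. Symbols came from a gene name table, coordinates and transcripts from GENCODE M21 (GRCm38). Limits from a count of 0 cover counting error only.

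The members and lists were chosen with earlier results of these data known. Values in every library were given for members called or at an unadjusted p under 0.05 (at least the 3 of smallest p) in a comparison and for the member of highest mean shLuc TPM in each role; other genes are given by range, or were named after their values were seen. Alternatives were DESeq2 1.42.0, no filter, limma 3.58.1 on log2(TPM + 1) and log2(TPM + 0.1), fits of only the groups compared, a replicate block, each library left out, 3 libraries left out, and clusters of libraries from all genes as a factor. Clusters of libraries from expressed genes (mean CPM of at least 10) as a factor and TPM rescaled to nuclear protein-coding genes were added after seeing the data. The 3 libraries left out together were picked by their correlations in these data. The edgeR test was tried on counts simulated from the means and dispersions of the fit to all 12 libraries, with changes planted in shDis3. At an adjusted p under 0.05 for shDis3 against shLuc, it recovered 40 of 100 planted 2-fold changes and 94 of 100 planted 4-fold changes. There were 5 false calls among 15884 genes.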

Additional observations from a re-analysis of the deposited data

Results flagged for a closer look

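Values in which 1 of the 4 libraries of a group stood apart from the other 3 were sought over 39 groups, 3 for each of the 13 members given in every library. The gap to the nearest library, as a share of the group's range, had to exceed Dixon's 95% critical value. Chance passes it in about 1 in 20 groups, and 4 values did so. In shLuc replicate 4, Bak1 had 83.6 normalised CPM, against 33.7 to 41.2 in the other 3 shLuc libraries, and Bcl2 had 11.6, against 6.76 to 7.53. In shExosc10 replicate 1, Casp8 had 56.0 normalised CPM, against 25.2 to 26.8 in the other 3 shExosc10 libraries, and Cflar had 22.8, against 18.9 to 19.1. Both libraries correlated best with a library of another group: shLuc replicate 4 with shDis3 replicate 3 at 0.989 across expressed genes (log2 CPM, genes not being independent), and shExosc10 replicate 1 with shDis3 replicate 4 at 0.984.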

How the results depend on the processing

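The count of 0 members called held in all 3 comparisons under every alternative except the fit without shDis3 replicate 4, shExosc10 replicate 1 and shLuc replicate 4, where 2 were called for shDis3 against shLuc and 1 for shDis3 against shExosc10. That fit leaves 3 libraries a group, and its groups coincide with library clusters in both comparisons with calls. Its p-values do not allow for the choice of libraries by their expression in these data. Fold changes under alternatives were compared for the members given in every library only. Of these 858 fold changes, 785 kept their direction and their side of the threshold and 70 reversed. The largest size with all libraries among the reversed was 0.41. Other members, among them the rare Hrk, Bmf and Bok, were not counted here. Except for the fits that use fewer libraries, the cause of the changes below was not tested.

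For shDis3 against shLuc, the 0 members at an unadjusted p under 0.05 became 1 with no filter on low counts, 5 without the 3 libraries and 1 with the expressed-gene clusters. For shExosc10 against shLuc the 0 became 2 with DESeq2, 1 with limma on TPM rescaled to nuclear protein-coding genes, 1 without the 3 libraries and 2 with the expressed-gene clusters. For shDis3 against shExosc10 the 1 became 2 with DESeq2, 0 with limma on log2(TPM + 0.1), 2 on rescaled TPM and 6 without the 3 libraries. With 1 library left out, these counts ran from 0 to 3, from 0 to 1 and from 1 to 6. The highest came without shLuc replicate 4 (3), without shLuc replicate 1 or 2 (1) and without shDis3 replicate 4 (6). For shDis3 against shLuc there were also 1 without shDis3 replicate 2 and 2 without shDis3 replicate 4. For shDis3 against shExosc10 there were 2 without shDis3 replicate 2, shExosc10 replicate 1 or shExosc10 replicate 4. Over all 19777 genes tested without shLuc replicate 4, 1273 were higher and 713 lower at such a p for shDis3 against shLuc. Over all 19795 tested without shDis3 replicate 4, 739 were higher and 1028 lower for shDis3 against shExosc10. Without the 3 libraries, the shares of all genes were 15.3%, 3.32% and 14.4% in the 3 comparisons.

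Members whose groups did not overlap numbered 0 to 2 for shDis3 against shLuc, 1 to 3 for shExosc10 against shLuc and 1 to 5 for shDis3 against shExosc10 with 1 library left out, and 0 on TPM for shExosc10 against shLuc. The highest of these came without shLuc replicate 4, without shExosc10 replicate 1 or shLuc replicate 1, and without shDis3 replicate 4. With fewer libraries, groups separate more easily for any gene. The share of all genes is not given for these counts, so they say nothing particular to the members. The median log2 fold change of the members was 0.24 and 0.27 for shDis3 against shLuc on log2(TPM + 1) and log2(TPM + 0.1). For shDis3 against shExosc10 it was 0.30 and 0.40 on those scales, 0.018 with the expressed-gene clusters and 0.057 to 0.23 with 1 library left out, lowest without shDis3 replicate 4. On the TPM scales the median of all genes also shifted, to 0.11 and 0.17 for shDis3 against shLuc, against 0.02 on counts.

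With the replicate block, no call changed and the medians were 0.025, -0.10 and 0.14 in the 3 comparisons. The block counted 0, 0 and 1 members at an unadjusted p under 0.05. Replicate numbers did not pair the libraries throughout: correlations of deviations between libraries of the same number ran from -0.47 to 0.773 over 12 pairs. They were positive in all pairs of number 2 (0.373 to 0.773) and of number 1 (0.096 to 0.233). Those of number 3 ran from -0.452 to 0.238 and those of number 4 from -0.47 to 0.287. Of the 12 libraries, 4 had their highest such correlation, among libraries of the other groups, with one of their own number.

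The reversals below are those of the members given in every library. For shDis3 against shLuc, fold changes of the opposite sign were with DESeq2 Diablo -0.0086, and with limma on log2(TPM + 1) Birc3 0.31, Tradd 0.27, Cycs 0.099. Others were with limma on log2(TPM + 0.1) Birc3 0.34, Tradd 0.30, Cycs 0.10, and with limma on rescaled TPM Birc3 0.18, Tradd 0.14. Further ones were without the 3 libraries Diablo -0.16, and with expressed-gene clusters Bid -0.048, Casp8 -0.20, Casp9 0.14, Cflar -0.14, Tradd 0.053. Leaving out 1 library at a time gave for shDis3 against shLuc Bid -0.0059 to 0.25, Birc3 -0.24 to 0.032, Tradd -0.17 to 0.12, Diablo -0.074 to 0.10. For shExosc10 against shLuc, fold changes of the opposite sign were with DESeq2 Bcl2l1 0.0058, and with limma on log2(TPM + 1) Bcl2l1 0.10. Others were with limma on log2(TPM + 0.1) Bcl2l1 0.13, and with limma on rescaled TPM Bcl2l1 0.069, Casp8 -0.051. Further ones were without the 3 libraries Bcl2 0.15, Bcl2l1 0.34, Mcl1 0.015, Casp8 -0.22, Cycs -0.11, and with expressed-gene clusters Bcl2 0.13, Bcl2l1 0.28, Mcl1 0.028, Casp8 -0.25, Cycs -0.074. The last was with the replicate block Casp8 -0.018. Leaving out 1 library at a time gave for shExosc10 against shLuc Bcl2 -0.20 to 0.11, Bcl2l1 -0.11 to 0.17, Casp8 -0.34 to 0.14, Tradd -0.27 to 0.021. For shDis3 against shExosc10, fold changes of the opposite sign were with limma on log2(TPM + 1) Mcl1 0.021, Bid 0.096, Dffa 0.11, and with limma on log2(TPM + 0.1) Mcl1 0.019, Bid 0.098, Dffa 0.11. Others were with limma on rescaled TPM Bid 0.0076, Dffa 0.018, and without the 3 libraries Dffa 0.042. Further ones were with expressed-gene clusters Bcl2 -0.12, Bak1 -0.38, Birc3 -0.0031, and with all-gene clusters Birc3 -0.18. Leaving out 1 library at a time gave for shDis3 against shExosc10 Mcl1 -0.26 to 0.029, Bid -0.20 to 0.064, Birc3 -0.081 to 0.21, Dffa -0.21 to 0.11.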
